A study of Homo sapiens with 6 samples.

Results

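The MAP kinase phosphatases are 10 genes of the dual-specificity phosphatase family, DUSP1, DUSP2, DUSP4, DUSP5, DUSP6, DUSP7, DUSP8, DUSP9, DUSP10 and DUSP16, taken by name from a table of read counts for 36517 genes. All 10 were in the table, and 9 passed the filter on low counts and were tested among 19628 genes. The study asked how gene expression in breast cancer cells responds to loss of tRF-1-Ser, a small RNA cut from the 3′ end of a serine tRNA precursor, and it examined the JNK cascade downstream. MDA-MB-453 is an established human breast cancer line of luminal character that expresses ERBB2. It was transduced with a lentivirus carrying either a control hairpin (control, n = 3 libraries) or one directed at this small RNA (shtRF, n = 3 libraries), and the libraries of mRNA are labelled day 3. Both groups therefore carried a lentivirus and a hairpin, in cells that the study describes as stably transduced. The study calls its replicates biological, but whether they were separate transductions is not given in the sources used here. The p-values therefore set the group difference against the spread between these libraries only.

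MAP kinases are switched on when a MAP kinase kinase phosphorylates a threonine and a tyrosine of their activation loop, and MAP kinase phosphatases switch them off by removing both phosphates. Members differ in the kinase they prefer and in where they work. DUSP5, DUSP6, DUSP7 and DUSP9 are selective for ERK, with DUSP5 in the nucleus and the others mainly in the cytoplasm. DUSP8, DUSP10 and DUSP16 prefer JNK and p38. DUSP1, DUSP2 and DUSP4 are nuclear enzymes that accept ERK, JNK and p38 to varying degrees. Several of these genes are themselves switched on by the kinases they oppose, which makes them feedback inhibitors. Transcript levels do not measure phosphatase or kinase activity.

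The libraries held 63541413 to 78917459 counts, and no library stood apart in depth. The Pearson correlation of log2(CPM + 1) was at least 0.9973 within groups and at most 0.9894 between groups. Same-group libraries differed by more than counting noise, with a chi-square per degree of freedom from 5.93 to 17.2, so none was counted as a repeat. The luminal markers ERBB2, FOXA1, GATA3, KRT8, KRT18, KRT19 and EPCAM were at 126 CPM (counts relative to the library's total, scaled by the TMM method) or more in every library. Their sum was 4278 to 4326 CPM in control and 5406 to 5890 CPM in shtRF. They did not move together. KRT8 (mean 1557 and 2691 CPM) and KRT18 (386 and 601 CPM) were higher in shtRF. ERBB2 and GATA3 were lower (log2 fold change -0.19 and -0.14), and the other 3 were not called at an adjusted p under 0.05. Among 10 markers of leukocytes, fibroblasts, endothelium and basal cells, none was at 0 in all libraries, but only COL1A1 and TP63 exceeded 0.318 CPM. The summed level of these 10 markers was 32.8 to 39.1 CPM in control and 23.3 to 23.7 CPM in shtRF, nearly all of it COL1A1, and the part of either marker list in the results was not tested. In bulk RNA, fewer cells of a type and less RNA per cell cannot be told apart. The hairpin's own target is a small RNA that these mRNA libraries do not measure.

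Of the 9 phosphatase genes tested, 5 rose in shtRF, 1 fell and 3 did not pass the threshold of an adjusted p under 0.05 in edgeR's quasi-likelihood test. DUSP10, DUSP6, DUSP8, DUSP4 and DUSP16 rose, by 1.73-fold at most, and DUSP5 fell to 0.59 of its control level. Over all tested genes, 20.6% were higher, 18.9% were lower and 39.5% were called in either direction, against 6 of 9 here. The median log2 fold change was 0.27 over the 9 phosphatase genes and -0.003 over all tested genes. All 3 libraries of a group lay beyond all 3 of the other for 6 of the 9, as they did for 48.7% of all genes. The ERK-selective members DUSP6 and DUSP5 moved in opposite directions, while the 3 members directed at JNK and p38 all rose.

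**Figure D1:**
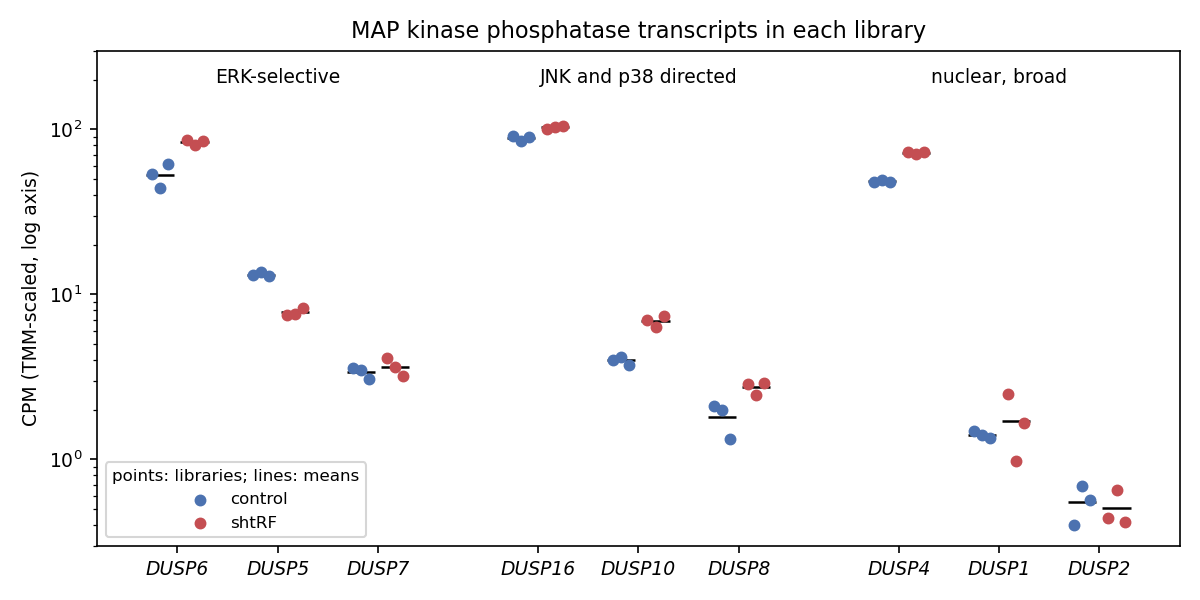
Expression of the 9 tested phosphatase genes in each of the 6 libraries, as CPM on a log axis, with the mean of 3 libraries as a line. The shtRF libraries of DUSP5 lie below all control libraries, those of DUSP6, DUSP16, DUSP10, DUSP8 and DUSP4 lie above them, and those of DUSP7, DUSP1 and DUSP2 overlap with control. DUSP9, with at most 2 counts, is not drawn.

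Levels of different genes were compared per length, as RPKM (counts relative to exonic length and library total). In control cells the order was DUSP16 at 15.8 ± 0.529 RPKM (SD, n = 3), DUSP6 at 11.7 ± 1.84, DUSP4 at 6.79 ± 0.171, DUSP5 at 5.14 ± 0.177 and DUSP10 at 1.40 ± 0.0864. DUSP1, DUSP7, DUSP8 and DUSP2 followed between 0.714 and 0.29 RPKM, and DUSP9 was at 0.0063 RPKM. Libraries of neighbouring genes in this order overlapped only for DUSP8 and DUSP2. In shtRF cells DUSP6 at 17.8 ± 1.04 RPKM stood level with DUSP16 at 17.7 ± 0.313, and their libraries overlapped. The place of DUSP6 depends on whether its counts include reads of an overlapping antisense neighbour, as described with that gene. The counts of DUSP6 in excess of that neighbour came to 1.74 RPKM in control and 2.81 RPKM in shtRF over its full exonic length. Over the length outside other genes they came to 2.93 and 4.73 RPKM. On both scales these values were below DUSP4 in both groups. The subtraction removes all counts of the neighbour, wherever they lay, so it gives a low bound and not the level of DUSP6. On the deposited counts, DUSP4 came next at 9.77 ± 0.362 RPKM, then DUSP5 at 2.92 ± 0.158 and DUSP10 at 2.33 ± 0.201. The libraries of DUSP1 and DUSP7 overlapped, as did those of DUSP7 and DUSP8. By its mean RPKM over the 6 libraries, DUSP16 exceeded 86.5% of all tested genes, DUSP6 85.0% on its deposited counts, DUSP4 76.0% and DUSP2 15.4%.

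The ERK-selective class held the opposing changes. DUSP6, also called MKP-3, is a cytoplasmic enzyme induced by ERK signalling through ETS factors, and it is encoded on chromosome 12 (89347232 to 89353271, GRCh38, minus strand). It was at 53.6, 44.4 and 61.8 CPM in the control libraries and at 86.2, 80.4 and 84.9 CPM in the shtRF libraries. The control libraries were spread more widely than the shtRF libraries, but no control value reached the lowest shtRF value. The fold change was 1.57 (95% confidence interval 1.40 to 1.77; log2 fold change 0.65 ± 0.08, SE; edgeR adjusted p = 9.07e-07). In the exon coordinates of the table, 40.5% of DUSP6 exonic sequence is also exonic in another gene, mainly an antisense gene on the opposite strand (AC024909.2 in GENCODE 29). This neighbour had between 82.3% and 86.9% as many counts as DUSP6 in every library and rose by 0.64 on the log2 scale. The study names a stranded library kit, but the strand setting of the counting is not given in the sources used here. Whether the genes share counted reads is therefore not known, and reads of the overlap cannot be divided between them. The counts of DUSP6 in excess of those of its neighbour were 509, 595 and 647 in control and 977, 917 and 778 in shtRF, or 7.94 ± 0.149 and 13.3 ± 0.686 CPM (SD, n = 3), a ratio of 1.67.

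DUSP5 (chromosome 10, 110497838 to 110511544, plus strand) is the nuclear ERK phosphatase, which also holds inactive ERK in the nucleus. It was at 13.1, 13.6 and 12.9 CPM in control and at 7.50, 7.57 and 8.29 CPM in shtRF. All shtRF values lay well below all control values. The fold change was 0.59 (95% confidence interval 0.521 to 0.669; log2 fold change -0.76 ± 0.09, SE; edgeR adjusted p = 3.25e-07). Only 6.95% of tested genes had a log2 fold change below that of DUSP5. None of its 2615 stretches of 50 bases in GENCODE 29 transcripts occurred in a transcript of another gene, its pseudogene DUSP5P1 included. DUSP5P1 had 129 to 235 counts and did not pass (log2 fold change -0.33, edgeR adjusted p = 0.109).

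DUSP7 (chromosome 3, 52048919 to 52056550, minus strand), a cytoplasmic relative of DUSP6, was at 3.58, 3.47 and 3.07 CPM in control and 4.10, 3.61 and 3.23 CPM in shtRF. The groups overlapped, and the test did not pass (log2 fold change 0.12, 95% confidence interval -0.18 to 0.41, edgeR adjusted p = 0.557). DUSP9 (chromosome X, 153642492 to 153651326, plus strand), best known from placenta and embryonic stem cells, had 0, 2 and 2 counts in control and 0, 0 and 0 in shtRF. If each count is a separate fragment, a count of 0 allows up to 3 counts, which was 0.0376 to 0.0484 CPM in these libraries. All values of DUSP9 lay at or under that limit, it was not tested, and no fold change can be given.

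The 3 phosphatases directed at JNK and p38 were all higher in shtRF, though by unequal amounts. DUSP10, or MKP-5, restrains JNK and p38 in immune and other cells (chromosome 1, 221701424 to 221742176, minus strand). Its values were 4.03, 4.20 and 3.76 CPM in control and 7.02, 6.36 and 7.35 CPM in shtRF, with a clear gap between the groups. Its fold change of 1.73 was the largest rise in the family in this fit (95% confidence interval 1.47 to 2.04; log2 fold change 0.79 ± 0.11, SE; edgeR adjusted p = 8.11e-06), and 5.16% of all tested genes rose by more.

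DUSP16, or MKP-7, shuttles between nucleus and cytoplasm and acts mainly on JNK (chromosome 12, 12474210 to 12562383, minus strand). It was the most abundant member in control, at 91.4, 85.0 and 90.3 CPM, and was at 101, 104 and 106 CPM in shtRF. The groups did not overlap but lay close to each other. The fold change was 1.16 (95% confidence interval 1.08 to 1.25; log2 fold change 0.22 ± 0.05, SE; edgeR adjusted p = 0.0022). This small rise lay within the interquartile range of all genes, whose log2 fold changes ran from -0.27 to 0.24.

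DUSP8 (chromosome 11, 1554044 to 1571920, minus strand), known best from brain and heart, was low, at 138, 151 and 106 counts in control and 200, 168 and 180 in shtRF. In CPM these were 2.12, 2.00 and 1.33 against 2.85, 2.45 and 2.90. The groups did not overlap, and control replicate 3 was the lowest of the 6. The log2 fold change was 0.59 ± 0.19 (SE; 95% confidence interval 0.21 to 0.98; edgeR adjusted p = 0.0136). This call was lost without control replicate 3 (log2 fold change 0.41, adjusted p = 0.0776) and without shtRF replicate 3 (0.55, adjusted p = 0.0531), and with limma-trend on log2(RPKM + 1) (adjusted p = 0.0641) or log2(RPKM + 0.1) (adjusted p = 0.0884). DUSP8 shared 1.9% of its 50-base stretches with transcripts of 3 other genes, mainly the pseudogene DUSP8P5, which had 86, 150 and 62 counts in control and 41, 87 and 66 in shtRF and did not pass (edgeR adjusted p = 0.233).

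**Figure D2:**
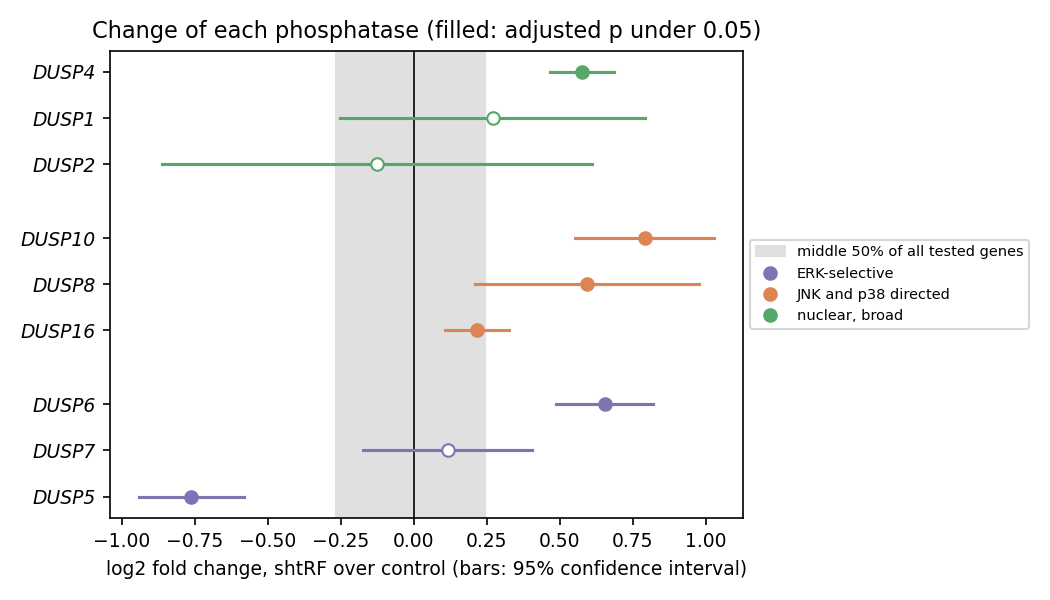
Log2 fold change, shtRF over control, of the 9 tested phosphatase genes with 95% confidence intervals, grouped by the kinases they prefer. Filled points passed an adjusted p under 0.05 and open points did not. The grey band is the interquartile range of all tested genes, from -0.27 to 0.24. DUSP5 lies at -0.76, and DUSP10, DUSP6, DUSP8 and DUSP4 lie between 0.58 and 0.79.

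Among the nuclear enzymes of broader preference, DUSP4 alone passed the test. DUSP4, or MKP-2 (chromosome 8, 29333064 to 29350668, minus strand), is induced by ERK signalling. It was at 48.2, 49.4 and 47.7 CPM in control and at 72.5, 70.8 and 73.4 CPM in shtRF, with little spread in either group. The fold change was 1.49 (95% confidence interval 1.38 to 1.61; log2 fold change 0.58 ± 0.05, SE), and its adjusted p of 1.31e-08 in edgeR was the smallest in the family in this fit.

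DUSP1, or MKP-1 (chromosome 5, 172768090 to 172771195, minus strand), is an immediate early gene that stress and growth factors induce within minutes. It had 97, 106 and 108 counts in control and 174, 67 and 103 in shtRF, or 1.49, 1.40 and 1.35 CPM against 2.48, 0.976 and 1.66 CPM. The shtRF libraries held both the highest and the lowest value, and their SD of 0.752 CPM compares with 0.07 CPM in control. The log2 fold change of 0.27 had a 95% confidence interval of -0.25 to 0.79 (edgeR adjusted p = 0.431), and without shtRF replicate 1 it was -0.11. DUSP2, or PAC-1 (chromosome 2, 96143166 to 96145440, minus strand), is known best from activated leukocytes. It was at 0.400, 0.689 and 0.564 CPM in control and 0.441, 0.655 and 0.419 CPM in shtRF. The groups overlapped and the interval of its log2 fold change was wide, from -0.86 to 0.61 (edgeR adjusted p = 0.816).

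Promoter windows from RefSeq (build GRCh38.p14, the 250 bases before each annotated start) were available for 8 of the 10 genes, in 10 windows. DUSP4 and DUSP5 had none. These genes are known as targets of stimulus-responsive factors, so both strands were searched for the cyclic AMP response element (TGACGTCA), the AP-1 site (TGANTCA), the CArG box of serum response factor, an ETS site (CCGGAAG) and the E-box (CACGTG). The cyclic AMP response element stood in windows of DUSP1 and DUSP8 and in 1.65% of all 35116 windows. The E-box stood in windows of DUSP1 and DUSP2 and in 6.34% of all windows. No member window held the letters of the AP-1 site, the CArG box or the ETS site, which 6.57%, 1.16% and 8.52% of all windows held. The stretches below, each of 30 bases read 5′ to 3′ on the minus strand, are shown because they hold every match in the family, with the match in capitals. None of these matches overlapped another.

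DUSP1, cyclic AMP response element, 125 bases before the start, chr5:172771302-172771331: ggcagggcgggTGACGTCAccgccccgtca
DUSP1, E-box, 108 bases before the start, chr5:172771286-172771315: tcaccgccccgtCACGTGatcaccattcaa
DUSP8, cyclic AMP response element, 118 bases before the start, chr11:1572371-1572400: ccgggctccgcTGACGTCAcctgcccccga
DUSP8, cyclic AMP response element, 74 bases before the start, chr11:1572327-1572356: ttggctgcaggTGACGTCAggggctttttt
DUSP2, E-box, 113 bases before the start, chr2:96145536-96145565: cagactgcgcccCACGTGaggggcgggggc

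The genes with these matches were the least abundant of the tested members beside DUSP7, and among them DUSP8 passed the test while DUSP1 and DUSP2 did not. The windows of DUSP6, DUSP10 and DUSP16, which rose, held none of the searched letters. The window of DUSP6 and a window each of DUSP10 and DUSP9 lay inside the counted span of the gene, downstream of its outermost start. The annotated start of the other DUSP10 window also lay inside that span. For DUSP8 and DUSP16 the annotated starts lay upstream of the counted gene, so the distances given for DUSP8 are not measured from the counted gene. These windows need not be the promoters of the counted transcripts. A match is a description of the letters and not a bound site, and a missing match says only that the letters are not in the window.

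Summed over the family, phosphatase transcripts were at 43.4, 41.0 and 44.2 RPKM in control and 54.8, 50.2 and 53.5 RPKM in shtRF. Every shtRF library was above every control library, with a ratio of the means of 1.23. With the excess counts of DUSP6 alone, the mean sum was 32.9 RPKM in control and 37.9 RPKM in shtRF over the full length (ratio 1.15). Over the length outside other genes it was 34.1 and 39.8 RPKM (ratio 1.17). RPKM values carry no correction for composition. The ERK-selective members contributed 40.7% ± 2.29 of the sum in control and 40.4% ± 0.452 in shtRF (SD, n = 3). The members directed at JNK and p38 contributed 41.1% ± 1.22 and 39.1% ± 0.905, and the broad nuclear members 18.2% ± 1.27 and 20.6% ± 0.457. These shares depend on DUSP6: with its excess counts alone, the ERK-selective share was 22.8% in control and 16.8% in shtRF over the full length, or 25.5% and 20.8% over the length outside other genes.

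**Figure D3:**
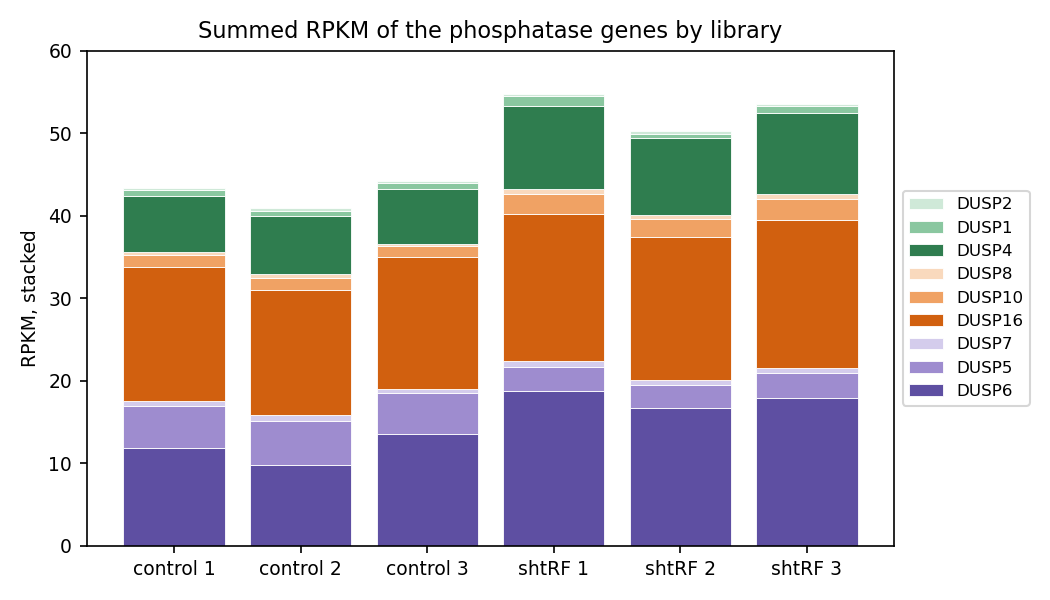
Stacked RPKM of the phosphatase genes in each library, from the deposited counts, with ERK-selective members in purple, those directed at JNK and p38 in orange and the broad nuclear members in green. The sums run from 41.0 to 44.2 RPKM in control and from 50.2 to 54.8 RPKM in shtRF. DUSP6, DUSP16 and DUSP4 make up most of each bar, and the DUSP5 segment narrows in shtRF.

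The balance between the ERK-selective class and the class directed at JNK and p38 depended on how DUSP6 was counted. On the deposited counts the ratio of their summed RPKM was 0.967, 0.921 and 1.09 in control and 1.07, 1.01 and 1.02 in shtRF, so the groups overlapped. With only the excess counts of DUSP6, it was 0.412, 0.45 and 0.416 in control and 0.319, 0.309 and 0.299 in shtRF over the full length, or 0.476, 0.519 and 0.485 against 0.418, 0.403 and 0.384 over the length outside other genes. On either of these scales every shtRF library lay below every control library. Both scales use a low bound for DUSP6. The direction of the class balance is therefore not settled by these counts. Within the classes the balance moved. The ratio of DUSP6 to DUSP5 was 2.31, 1.84 and 2.71 in control and 6.49, 5.997 and 5.79 in shtRF, a change of 2.66-fold between the means with no overlap, and of 2.84-fold with the excess counts of DUSP6, again with no overlap. DUSP5 went from 12.01% ± 0.894 of the family sum to 5.54% ± 0.251, and DUSP6 from 27.2% ± 3.29 to 33.7% ± 0.543 on the deposited counts, or from 5.3% to 7.43% with its excess counts over the full length. The ratio of DUSP16 to DUSP10 was 11.6, 10.3 and 12.2 in control and 7.33, 8.28 and 7.30 in shtRF, again without overlap. The ratio of DUSP6 to DUSP4 overlapped between groups at 1.75, 1.41 and 2.03 in control and 1.86, 1.78 and 1.81 in shtRF on the deposited counts, but with the excess counts over the full length it was 0.255, 0.25 and 0.266 against 0.301, 0.296 and 0.268, without overlap. These sums and ratios restate the changes of the single genes given above, add no separate result and were described without a test.

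**Figure D4:**
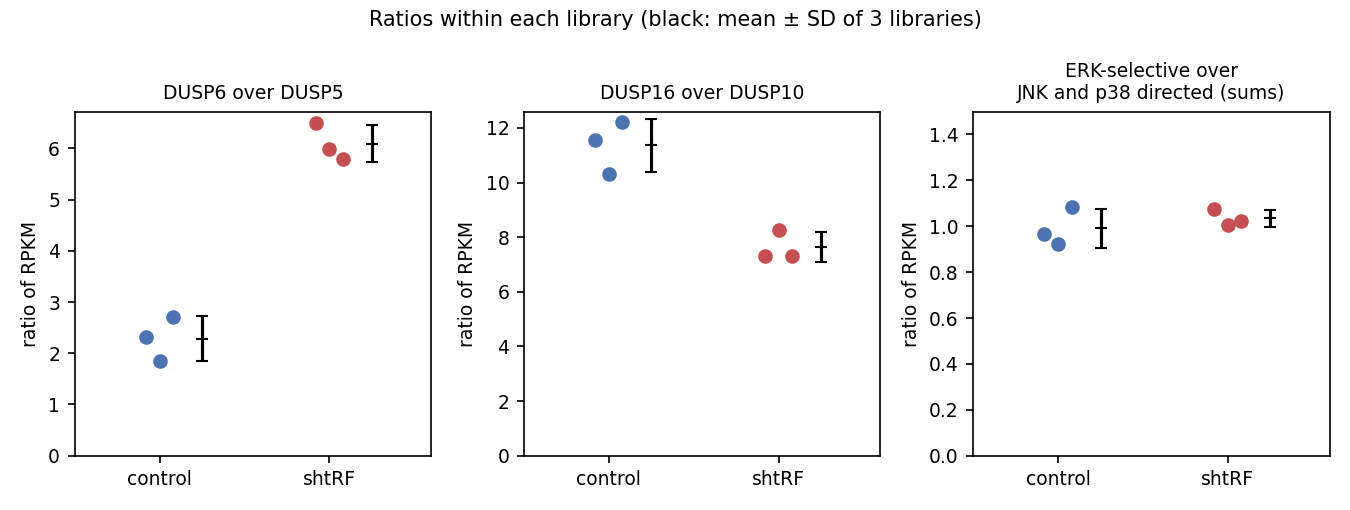
Ratios of RPKM within each library, from the deposited counts, for DUSP6 over DUSP5, DUSP16 over DUSP10, and the summed ERK-selective members over the summed members directed at JNK and p38, with the mean and SD of 3 libraries in black. The ratio of DUSP6 to DUSP5 lies between 1.84 and 2.71 in control and between 5.79 and 6.49 in shtRF, whereas the ratio of the class sums lies near 1 in both groups. The ratio of the class sums separated the groups, lower in shtRF, where only the excess counts of DUSP6 were used.

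Other genes of the pathway were read from the same fit. Of 17 atypical dual-specificity phosphatases, relatives that mostly lack the kinase-binding domain of the MAP kinase phosphatases, 11 were tested. DUSP3, STYXL1 and DUSP18 rose, none fell, and 8 did not pass, so 27.3% were called, all of them higher. Of all genes, 39.5% were called in either direction and 20.6% were higher. DUSP3, which can act on ERK and JNK, went from 9.41 ± 0.649 to 12.3 ± 0.75 CPM (SD, n = 3; log2 fold change 0.38). STYXL1 rose by 0.31 and lost its call in 6 of 15 alternatives. DUSP18, named after its values were seen, rose by 0.85, and 38.1% of its exonic sequence overlaps other genes, mainly SLC35E4. The tyrosine phosphatases PTPN5, PTPN7 and PTPRR, which also bind MAP kinases, were all too low to be tested.

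The substrates of the phosphatases moved in both directions. Of 9 MAP kinase genes read, all tested, 2 rose, 1 fell and 6 did not pass, a share of 33.3% called against 39.5% of all genes. MAPK3, which encodes ERK1, was at 37.7 ± 0.49 and 37.0 ± 1.35 CPM and did not pass. MAPK9, which encodes JNK2, was at 51.3 ± 2.53 CPM in control and 74.8 ± 0.153 CPM in shtRF, and it rose (log2 fold change 0.54, edgeR adjusted p = 5.54e-08). MAPK8, which encodes JNK1, fell from 6.61 ± 0.806 to 4.35 ± 0.223 CPM (log2 fold change -0.60, edgeR adjusted p = 3.30e-04). For p38, MAPK14 was at 19.5 ± 0.634 and 17.8 ± 0.165 CPM and did not pass (edgeR adjusted p = 0.133). MAPK12 rose by 0.40, although its groups overlapped and 29.3% of its exonic sequence overlaps HDAC10 for the most part, and it did not pass with limma-trend. Of 6 MAP kinase kinase genes tested, MAP2K7 rose by 0.15, MAP2K5 fell by 0.24 and 4 did not pass. That was 33.3% called, against 39.5% of all genes. MAP2K7 kept its call in 4 of 15 alternatives, and MAP2K5 lost it without control replicate 1 and without shtRF replicates 2 or 3.

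Other feedback inhibitors and targets of ERK gave a mixed picture. Of 7 Sprouty and SPRED genes, which restrain signalling between receptors and ERK, SPRY4, SPRY1 and SPRY3 rose and 4 did not pass, or 42.9% called against 39.5% of all genes. SPRY4 was at 15.0, 13.9 and 19.4 CPM in control and at 40.7, 39.6 and 41.0 CPM in shtRF, a fold change of 2.51 (edgeR adjusted p = 9.07e-11). As for DUSP6, control replicate 3 was the highest control library. SPRY1 rose by 0.29 on the log2 scale. SPRY3, named after its values were seen, had a mean of 0.737 CPM. Of 13 tested genes on a list of those induced by ERK, 2 rose, 5 fell and 6 did not pass, or 53.8% called against 39.5% of all genes, with a median log2 fold change of -0.20. ETV5, an ETS factor, went from 1.13 ± 0.228 to 3.32 ± 0.862 CPM (log2 fold change 1.55), and the ephrin receptor gene EPHA2 rose by 0.93. The immediate early gene EGR1 dropped from 5.34 ± 0.479 to 1.63 ± 0.246 CPM (log2 fold change -1.71, edgeR adjusted p = 6.19e-09), and EPHA4, another ephrin receptor gene, fell by 2.01. The others that fell were FOS, IER3 and CCND1, named after their values were seen, with log2 fold changes of -1.18, -0.34 and -0.27. FOS had a mean of 0.378 CPM, and 26.5% of the exonic sequence of IER3 overlaps other genes. Over the 59 other pathway genes, 46 were tested, 11 rose and 7 fell, or 39.1% called, with a median log2 fold change of 0.059.

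**Figure D5:**
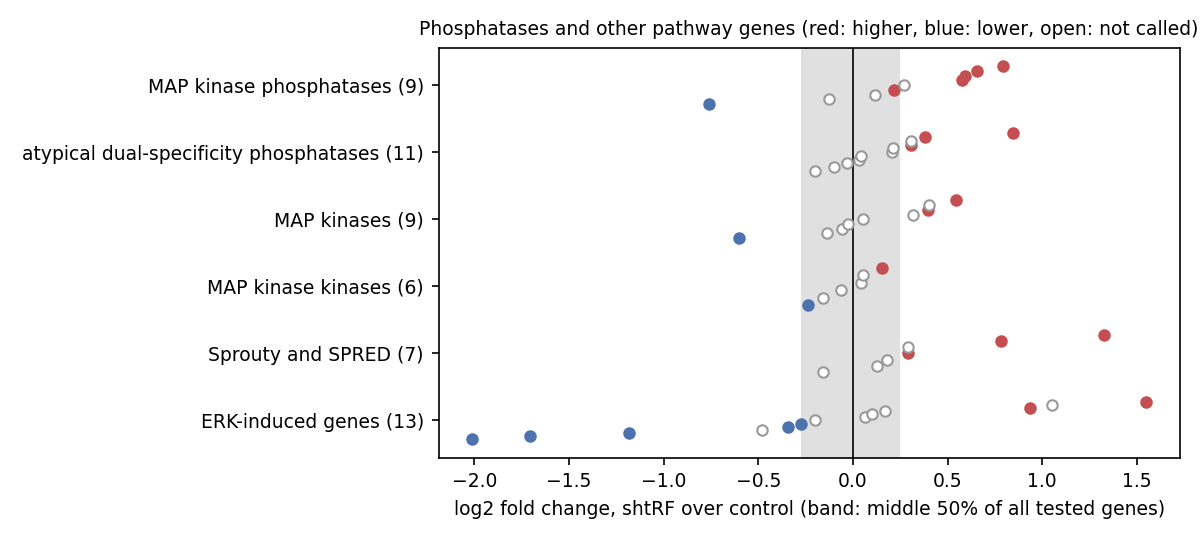
Log2 fold change, shtRF over control, of the tested phosphatase genes and of the tested genes of 5 other lists, with the number tested in brackets. Red points rose and blue points fell at an adjusted p under 0.05, open points did not pass, and the band is the interquartile range of all tested genes. The 13 genes induced by ERK reach from -2.01 to 1.55, wider than the phosphatases, which reach from -0.76 to 0.79.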

How the data were processed

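The authors deposited a table of unnormalized gene counts in 6 libraries, with exon coordinates and exonic lengths. The submitters' processing notes name Trimmomatic 0.36, featureCounts of Subread 1.5.1, edgeR 3.12.1 and GRCh38; the aligner and annotation release are not given in the sources used here. The authors also deposited RPKM values, of which 4991 genes were compared here: 100% of values equalled the count divided by length and library total (relative tolerance 0.0001), so RPKM was recomputed for all genes. Even numbers made up 74.2% to 77.1% of the counts from 1 to 4 in a library and 49.7% to 50.7% of those of at least 1000, so both mates of a pair may have been counted and the number of independent fragments may be smaller than the count.

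Counts were tested with edgeR 4.0.16 in R 4.3.3 (filterByExpr with a minimum count of 10, TMM, glmQLFit and glmQLFTest, design without further terms than the group), with Benjamini-Hochberg adjustment over 19628 genes and a threshold of 0.05. Standard errors came from the estimate and its F statistic, and intervals are 95% intervals from the same fit. CPM values use TMM factors, and RPKM values do not. Limits from a count of 0 cover counting error only, and they would be higher if both mates of a pair were counted. The test was run on simulated data with 200 changed genes. In the real data 7750 genes were called, so that check does not cover changes on this scale. Alternatives used DESeq2 1.42.0 and limma 3.58.1. The members, the lists and the rule for other named genes (up to 4 genes a list with the largest change among those called with at least 2 CPM, plus the main substrates MAPK3, MAPK8, MAPK9 and MAPK14) were chosen with earlier results of these data known. Genes the rule did not cover are named as such. The lists omit a pair of genes that are not reported here.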

Additional observations from a re-analysis of the deposited data

How the results depend on the processing

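Under 15 alternatives (RLE and upper quartile scaling, no low-count filter, at least 1 CPM in 3 libraries, DESeq2, limma-trend on log2(RPKM + 1) and log2(RPKM + 0.1), halved counts, the replicate block, and 6 fits that each left out 1 library), DUSP4, DUSP5, DUSP6, DUSP10 and DUSP16 kept their direction and passed in each. DUSP8 did not pass in 4 of them, listed beside its result; the cause was not tested. With either limma-trend fit, 7 other pathway genes were higher, against 11 in edgeR. Over all genes, 2900 and 2903 were higher in these 2 fits, against 4046 in edgeR, and the cause was not tested. DUSP7, DUSP1 and DUSP2 passed in none that tested them. Leaving out 1 library gave 4 to 5 members higher and 1 lower, 9 to 12 other pathway genes higher and 5 to 7 lower, and 3375 to 3950 genes higher and 3053 to 3601 lower over all genes. In these fits the log2 fold change ran from -0.11 to 0.56 for DUSP1, from -0.36 to 0.055 for DUSP2 and from -0.057 to 0.0048 for MAPK3, and these changes of sign came without shtRF replicate 1, control replicate 2 and shtRF replicate 3.

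Over all genes the replicate numbers showed little pairing: the deviation from the group mean correlated between libraries of one number at 0.059, 0.018 and 0.017. Yet 4 of 6 libraries correlated best with their own number, and whether libraries were paired is not given in the sources used here. With the replicate block, 5 members were higher and 1 lower, and 4123 genes were higher and 3776 lower over all genes. Of the other pathway genes, 14 were higher, against 11 without the block. The standard error of DUSP6 went from 0.080 to 0.063. It also fell for DUSP1 and DUSP7 and rose for the other tested members. DUSP1, DUSP2 and DUSP8 had the widest intervals of the tested members; halving the counts left their standard errors at 0.251, 0.329 and 0.186, against 0.252, 0.354 and 0.185.

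An alternative chosen after seeing the data used only the counts of DUSP6 in excess of its antisense neighbour. The ratio of ERK-selective to JNK and p38 directed summed RPKM, shtRF over control, was then 0.725 over the full exonic length and 0.814 over the length outside other genes, against 1.04 on the deposited counts.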
